A study of Homo sapiens with 6 samples.

Results

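The mitochondrial ribosomal protein genes were examined in SCC25 cells kept in hypoxia or normoxia. They were taken as every row of the count table typed as protein coding whose symbol was MRPL or MRPS followed by a number and at most 1 letter, which gave 78 of the 21776 genes listed. The rule uses only the symbol and the gene type. SCC25 is an established human line derived from an oral squamous cell carcinoma, and all libraries came from wild-type cells with no other allele or agent. The hypoxia group was held for 12 h in a mixture of 1% O2, 5% CO2 and balance N2, and the normoxia group for 12 h in humidified air with 5% CO2, with 3 libraries in each group. The labels do not say whether the 3 libraries of a group came from separate cultures, so the p-values measure only the spread between these libraries, which may be technical. The legend of one figure in the study names another oral carcinoma line, SCC9, for this experiment, while every sample label names SCC25.

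Mitochondria carry their own ribosome, which makes the few hydrophobic subunits of the respiratory chain that mitochondrial DNA encodes. Its ribosomal RNAs are transcribed inside the organelle, but all of its proteins are encoded in the nucleus, translated in the cytosol and imported. The large subunit (MRPL) joins amino acids and opens into a tunnel that faces the inner membrane, the small subunit (MRPS) reads the messenger RNA, and both contain proteins with bacterial counterparts beside proteins found only in mitochondria.

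The total counts were 37278703, 29637189 and 29981208 in normoxia replicates 1 to 3 and 30186813, 36076088 and 32272716 in hypoxia replicates 1 to 3. At this depth all 78 genes passed the filter on low counts that 14255 genes passed in all. MRPS24 was the shallowest, with 8 to 30 reads per library. Values per library are given as CPM, the counts scaled to a common library size after TMM normalization, and comparisons between genes as FPKM, which also divides by gene length. All 8 genes chosen as a check of the oxygen labels rose in hypoxia, among them the HIF target CA9, from 42.4 to 277 CPM, and the prolyl hydroxylase EGLN3, from 6.77 to 695 CPM. Of the squamous and epithelial markers, KRT5, TP63, CDH1, EPCAM and SFN were detected in every library, as were KRT17 and KRT6A, while KRT14 had 1 read in normoxia replicate 2 and none in the other libraries. These markers also moved with the condition: KRT5, SFN, EPCAM and KRT6A fell, with KRT6A going from 16.5 to 0.951 CPM, KRT17 and CDH1 rose, with CDH1 going from 188 to 479 CPM, and TP63 did not pass the test. The small decrease of KRT5 (log2-fold change -0.18) lost its call in 6 of 15 other settings. TP63 passed as higher with upper-quartile scaling and without normoxia replicate 3. The markers of other cell types were scarce: PTPRC and CD3E of leukocytes had at most 2 reads in any library, and COL3A1 and DCN of fibroblasts at most 4. The summed level of the 2 fibroblast markers that passed the filter, COL1A1 and PDGFRB, was nevertheless higher in hypoxia. It was 20.8, 18.4 and 16.6 CPM against 3.87, 2.97 and 5.41 CPM in normoxia, nearly all of it COL1A1. Its part in the results below was not tested. Of the leukocyte markers only CD68 passed the filter, at 27.3, 31.9 and 33.8 CPM in hypoxia against 32.7, 32.2 and 34.2 CPM in normoxia. Of the 3 endothelial markers only CDH5 passed the filter, at 1.05, 0.753 and 1.05 CPM in hypoxia against 0.242, 0.315 and 0.744 CPM in normoxia. CDH5 rose (log2-fold change 1.14, SE 0.44), with 9 to 22 reads per normoxia library and 28 to 34 per hypoxia library. That call was lost without normoxia replicate 1 (0.82), normoxia replicate 2 (0.97), hypoxia replicate 1 (1.06) or hypoxia replicate 3 (1.06), and the log2-fold change was 1.75 without normoxia replicate 3. The other markers, PECAM1 and VWF, had no more than 10 reads in any library. The part of these markers in the results was not tested either. In such bulk libraries, fewer cells of a kind and less RNA per cell cannot be told apart.

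Nearly the whole family was lower in hypoxia. Of the 78 genes, 69 fell, 1 rose and 8 did not pass the test (edgeR's quasi-likelihood test, Benjamini-Hochberg adjusted p under 0.05 over all genes tested). The response was wide in these cells, since 38.5% of all genes tested were lower and 39.2% higher by the same rule, against 88.5% of the family lower and 1.28% higher. The median log2-fold change (hypoxia over normoxia) of the 78 genes was -0.68, with the middle of the distribution between -0.92 and -0.42, against 0.023 for all genes tested. In 68 of the 78 genes all hypoxia values lay below all normoxia values, a separation that 39.9% of all genes tested showed in that direction and 40.6% in the other. For 15 members the log2-fold change was also below -1, which held for 10.5% of all genes tested. The decreases were thus common and moderate in size: the largest was 3.16-fold, in MRPL15, and the only increase was that of MRPS6.

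**Figure D1:**
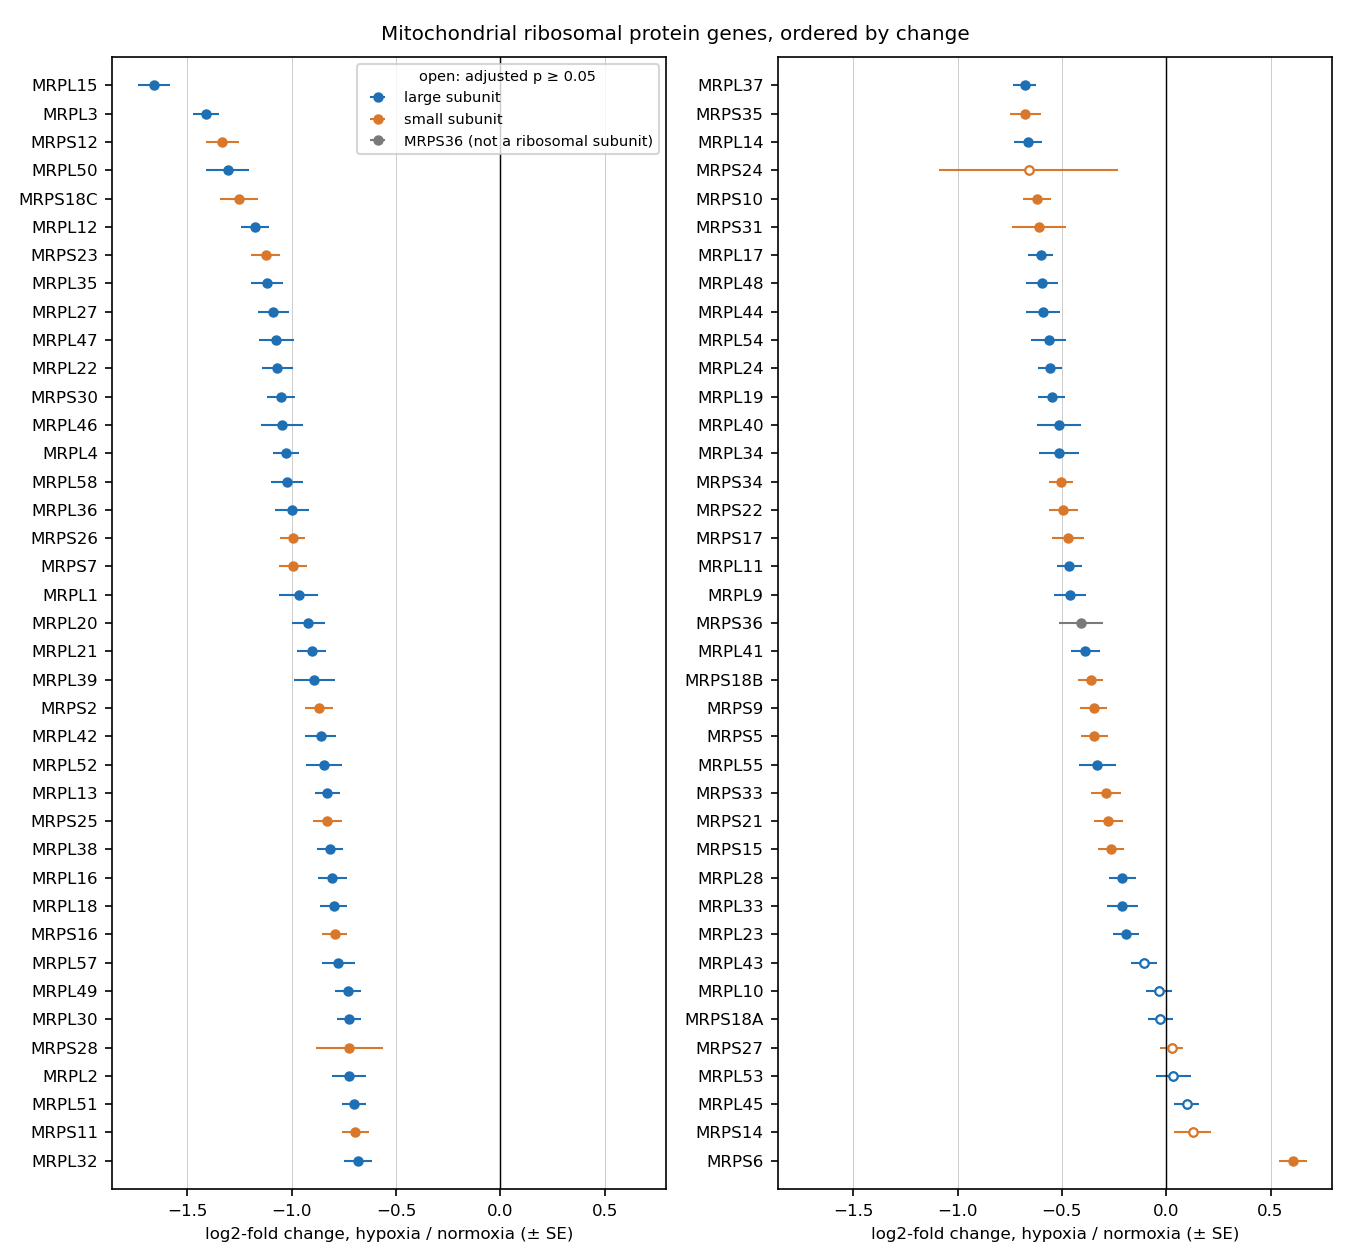
The log2-fold change (hypoxia over normoxia) of each of the 78 genes with its standard error, ordered from MRPL15 at -1.66 to MRPS6 at 0.61, with colours for the ribosomal subunit and open circles for the 8 genes that did not pass the test. All but 5 of the points lie left of 0.

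The same shift stood in each library. Summed over the family, the level was 4960.3, 5113.9 and 4622.5 CPM in normoxia and 3185.6, 2997.7 and 3172.0 CPM in hypoxia, so that the hypoxia mean was 0.637 of the normoxia mean. Per gene, the median distance from the normoxia mean was -0.67, -0.73 and -0.64 on the log2 CPM scale in the 3 hypoxia libraries and 0.021, 0.067 and -0.093 in the normoxia libraries. No hypoxia library overlapped a normoxia library in either measure, and 72, 75 and 72 of the 78 genes lay below their normoxia mean in hypoxia replicates 1, 2 and 3. Normoxia replicate 3 was the lowest of its group, with 64 genes below the group's mean, and without it the median log2-fold change was -0.75.

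**Figure D2:**
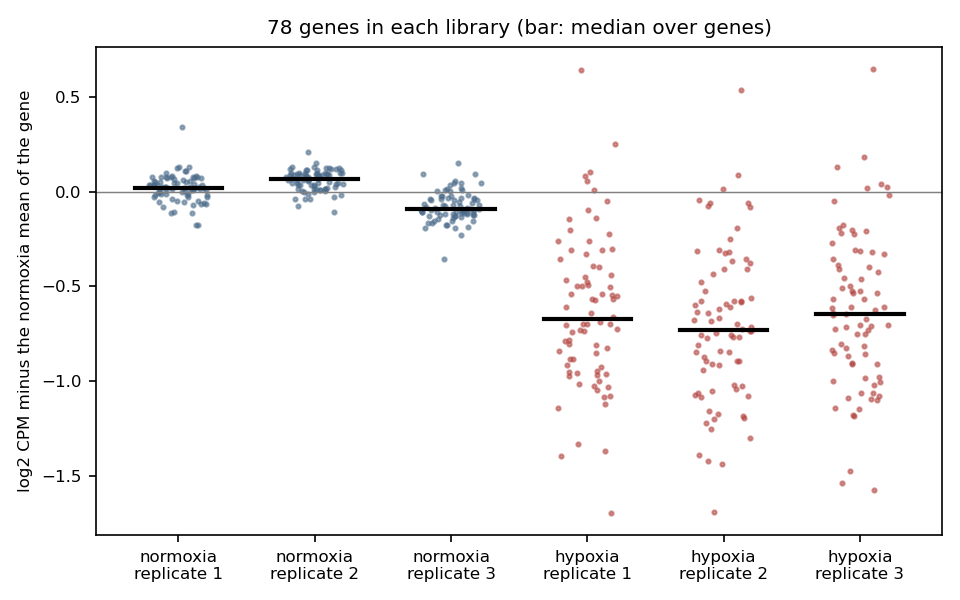
The distance of each of the 78 genes from its normoxia mean (log2 CPM) in every library, with a bar for the median over genes. The normoxia medians lie between -0.093 and 0.067 and the hypoxia medians between -0.73 and -0.64.

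In the large subunit, 46 of 51 genes fell and none rose, with a median log2-fold change of -0.73. MRPS18A and MRPS30 are counted here because their proteins sit in the large subunit despite their names. Among the 30 proteins with bacterial counterparts 29 fell, with a median of -0.76, and among the 21 mitochondria-specific ones 17 fell, with a median of -0.70. The difference between these classes was not tested.

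MRPL15 (Entrez gene 29088), the counterpart of bacterial L15, had the largest decrease of the family. It was at 78.3, 73.9 and 64.0 CPM in normoxia and at 22.1, 22.2 and 24.0 CPM in hypoxia. All hypoxia values were close together and far below the lowest normoxia value. Its log2-fold change was -1.66 (SE 0.077, adjusted p = 3.24e-12 by edgeR).

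MRPL3 (Entrez gene 11222), the counterpart of bacterial L3, was the most abundant member per length and had the second decrease in size. It was at 282, 276 and 245 CPM in normoxia and at 106, 99.7 and 96.1 CPM in hypoxia. The groups were well separated, with a log2-fold change of -1.41 (SE 0.062, adjusted p = 1.81e-12 by edgeR). In FPKM its level went from 154 ± 11.8 (SD, n = 3) to 59.8 ± 3.08, so that in hypoxia it no longer led the family and lay below MRPL51.

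MRPL50 (Entrez gene 54534), a mitochondria-specific protein, was at 36.4, 40.0 and 36.9 CPM in normoxia and at 18.5, 14.4 and 13.0 CPM in hypoxia. Hypoxia replicate 1 was the highest of its group but still far below normoxia, and the log2-fold change was -1.31 (SE 0.10, adjusted p = 3.56e-09 by edgeR). MRPL35 (Entrez gene 51318), the counterpart of bacterial L35, was at 55.1, 58.6 and 48.4 CPM in normoxia and at 24.4, 25.9 and 24.3 CPM in hypoxia, with no overlap and a log2-fold change of -1.12 (SE 0.075). The other large-subunit genes with a log2-fold change below -1 were MRPL12, MRPL27, MRPL47, MRPL22, MRPS30, MRPL46, MRPL4 and MRPL58. MRPL58 is a peptidyl-tRNA hydrolase built into the ribosome, with a log2-fold change of -1.02.

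At the stalk of the large subunit, where the translation GTPases dock, MRPL12 (Entrez gene 6182), the counterpart of the bacterial L7/L12 stalk protein, was at 129, 129 and 113 CPM in normoxia and at 58.4, 50.1 and 55.9 CPM in hypoxia, a log2-fold change of -1.18 (SE 0.068, adjusted p = 4.77e-11 by edgeR). MRPL11 of the stalk base was at 131, 128 and 114 CPM in normoxia and at 91.5, 89.1 and 90.1 CPM in hypoxia, a smaller separation with a log2-fold change of -0.46 (SE 0.058). MRPL10, which anchors MRPL12, was at 59.7, 68.5 and 61.3 CPM in normoxia and at 63.4, 59.5 and 62.2 CPM in hypoxia. Its groups overlapped, with a log2-fold change of -0.033 (SE 0.063, adjusted p = 0.638 by edgeR). The standard errors of these 3 genes were alike, and the differences between their changes were not tested.

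At the central protuberance, the crown of the large subunit near the small-subunit interface, 6 of 6 genes fell, with a median log2-fold change of -0.81. MRPL27 and MRPL46 fell most, by 1.09 and 1.05 on the log2 scale, and MRPL40 least, by 0.51. Around the exit of the peptide tunnel 6 of 7 genes fell, from -1.07 for MRPL47 and MRPL22 to -0.19 for MRPL23. The exception was MRPL45, which tethers the ribosome to the inner membrane. It was at 73.5, 75.3 and 64.8 CPM in normoxia and at 75.2, 75.6 and 77.8 CPM in hypoxia, where the lowest hypoxia value lay just under the highest normoxia value (log2-fold change 0.097, SE 0.062, adjusted p = 0.16 by edgeR). The call of MRPL23 did not hold with upper-quartile scaling or with a minimum of 10 counts per library. Each of these settings left 5 of the 7 genes lower.

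In the small subunit, 22 of 26 genes fell, 1 rose and 3 did not pass, with a median log2-fold change of -0.62. Of the 16 with bacterial counterparts 13 fell (median -0.64), and of the 10 mitochondria-specific ones 9 fell (median -0.56). MRPS12 (Entrez gene 6183), the counterpart of bacterial S12 at the decoding centre, was at 49.9, 51.5 and 44.9 CPM in normoxia and at 18.8, 17.9 and 21.4 CPM in hypoxia. The groups were far apart, with a log2-fold change of -1.33 (SE 0.081, adjusted p = 9.15e-11 by edgeR). MRPS18C (Entrez gene 51023), one of the counterparts of bacterial S18, was at 35.4, 33.4 and 30.1 CPM in normoxia and at 12.5, 14.5 and 14.5 CPM in hypoxia, with a log2-fold change of -1.25 (SE 0.091). MRPS23 (Entrez gene 51649), a mitochondria-specific protein, was at 65.8, 67.0 and 59.2 CPM in normoxia and at 30.9, 27.4 and 29.9 CPM in hypoxia, with a log2-fold change of -1.12 (SE 0.069). Neither gene had a hypoxia value near its normoxia values.

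Of the MRPS18 paralogs, MRPS18C fell by 1.25 and MRPS18B by 0.36 on the log2 scale, while MRPS18A was at 50.7, 52.1 and 49.7 CPM in normoxia and at 49.2, 48.7 and 51.8 CPM in hypoxia, with overlapping groups (log2-fold change -0.028, SE 0.059, adjusted p = 0.671 by edgeR). MRPS36, a member by name, is known as a subunit of the 2-oxoglutarate dehydrogenase complex of the citric acid cycle. It was at 14.7, 18.0 and 17.3 CPM in normoxia and at 13.4, 11.5 and 12.7 CPM in hypoxia, with no overlap and a log2-fold change of -0.41 (SE 0.11, adjusted p = 0.00195 by edgeR), which did not pass with upper-quartile scaling (adjusted p = 0.0684). Among the annotation terms that the deposited table pairs with each gene, 77 of the 78 carried mitochondrial translation, and MRPS36 was the one without it.

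MRPS6 (Entrez gene 64968), the counterpart of bacterial S6, was the only member that rose. It was at 31.6, 29.1 and 29.04 CPM in normoxia and at 46.6, 43.4 and 46.8 CPM in hypoxia. All 3 hypoxia libraries lay above all normoxia libraries, with a log2-fold change of 0.61 (SE 0.067, adjusted p = 2.57e-07 by edgeR). In the GENCODE annotation its exons share 273 bases, 6.4% of their length, on the same strand with SLC5A3, a myo-inositol transporter gene that rose from 27.2 to 135 CPM, a log2-fold change of 2.31. Whether reads of SLC5A3 contributed to the count of MRPS6 was not tested.

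The 8 genes that did not pass the test were MRPS24, MRPL43, MRPL10, MRPS18A, MRPS27, MRPL53, MRPL45 and MRPS14. MRPS24 was at 0.806, 0.629 and 0.473 CPM in normoxia and 0.262, 0.538 and 0.401 CPM in hypoxia (log2-fold change -0.66, SE 0.43). Whether a change of this size can be detected with so few reads was not tested. The other 7 had standard errors of at most 0.0903, and their log2-fold changes lay between -0.11 for MRPL43 and 0.13 for MRPS14. MRPS14 was at 21.2, 20.8 and 20.5 CPM in normoxia and at 24.7, 19.9 and 23.6 CPM in hypoxia, where hypoxia replicate 2 lay below all normoxia libraries and the other hypoxia libraries above them. Without that library MRPS14 passed as higher (log2-fold change 0.21, adjusted p = 0.039 by edgeR). The number of genes that passed as higher depended on the scaling: it was 2 with library totals and 7 with upper-quartile scaling, in which MRPL45, MRPS14, MRPS27, MRPL53, MRPL10 and MRPS18A joined MRPS6. At the small end of the decreases, MRPL28 fell by 0.21 on the log2 scale although its groups overlapped, and MRPL33 fell by 0.21 but did not pass without hypoxia replicate 2 (adjusted p = 0.0645 by edgeR).

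By level, the family spanned from 0.775 FPKM for MRPS24 and 3.21 FPKM for MRPL42 to 107 FPKM for MRPL3 as means over the 6 libraries, with a median of 29.8 FPKM. After MRPL3 came MRPL51, MRPL32, MRPS34 and MRPL12, and all 5 fell. MRPL51, a mitochondria-specific protein, was at 125 ± 1.93 FPKM (SD, n = 3) in normoxia and 79.6 ± 4.12 in hypoxia. MRPL32, the counterpart of bacterial L32 that is cleaved by an inner-membrane protease after import, was at 120 ± 9.01 FPKM in normoxia and 77.2 ± 3.17 in hypoxia. In normoxia, MRPL51, MRPL32 and MRPL12 (121 ± 8.60 FPKM) were thus neighbours that did not differ beyond their spread, and in hypoxia the same held for MRPL51, MRPL32 and MRPS34 (77.1 ± 4.83 FPKM).

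In CPM, MRPL51 was at 112, 119 and 113 in normoxia and at 73.3, 65.3 and 72.8 in hypoxia, with a log2-fold change of -0.70 (SE 0.059). MRPL32 was at 103, 115 and 96.4 CPM in normoxia and at 66.1, 61.5 and 68.4 CPM in hypoxia, with a log2-fold change of -0.68 (SE 0.066). MRPS34, a mitochondria-specific protein of the small subunit, was at 107, 111 and 111 CPM in normoxia and at 83.3, 73.1 and 75.8 CPM in hypoxia, with a log2-fold change of -0.50 (SE 0.058). No hypoxia library of these 3 genes reached a normoxia library. Across the 78 genes the size of the change had little relation to the level (Spearman's rho 0.083 between log2-fold change and mean log2 CPM) or to the gene length (rho -0.041), given as a description since the genes share the same libraries.

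**Figure D3:**
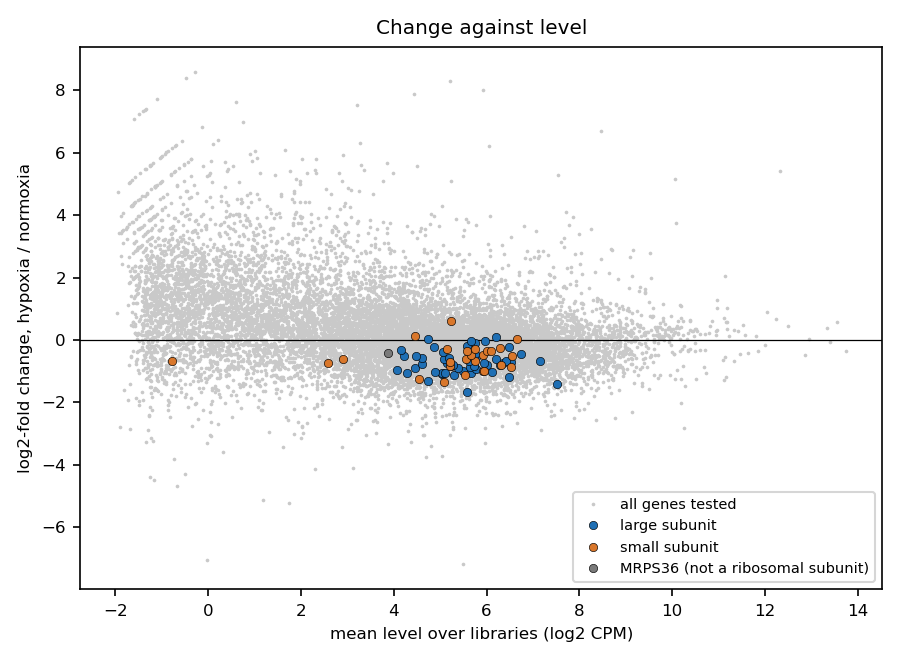
The log2-fold change (hypoxia over normoxia) against the mean log2 CPM for all 14255 genes tested (grey) and the 78 mitochondrial ribosomal protein genes (coloured by subunit). The family sits mostly below 0 at every level it covers, while all genes tested centre on 0.023.

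Reads on exons that belong to more than one gene could not be assigned with certainty, since neither the annotation nor the use of strand in counting is given in the sources used here. In GENCODE v29, 41 of the 78 members share exon bases with another gene, 27 of them with a gene that was tested. Of the other 37 members 35 fell, with a median log2-fold change of -0.68. Some of the genes that stood apart from the family had such neighbours, MRPS18A and MRPS27 among them, while MRPL10 and MRPL45 share no exon bases with another gene. Whether shared exons had a part in these values was not tested. MRPL43 overlaps, on the opposite strand, 1170 bases of SEMA4G, which rose (log2-fold change 2.97), and 149 bases of the mitochondrial helicase gene TWNK, which fell (-2.46). MRPL53 shares 608 bases with CCDC142 on the same strand, and MRPS14 lies opposite 351 bases of CACYBP, which fell (-1.23). MRPS18C overlaps 1956 bases of ABRAXAS1 on the opposite strand, which rose (1.36), whereas MRPS18C itself fell. MRPS24, the gene with the lowest level, shares 606 bases on the same strand with the readthrough gene URGCP-MRPS24, which is not in the count table, and whether this lowered its count was not tested. MRPL12 shares 701 of its exon bases with the protein-coding gene model AC139530.2, also not in the table.

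The promoters of the family were read for 6 short motifs known in genes of mitochondria, hypoxia or growth control. RefSeq windows (GRCh38.p14) of 300 bases, from 250 before to 50 after a transcription start, matched 69 of the 78 members with 85 starts. Both strands were searched for CCGGAAG of ETS factors such as GABP, ATGGCGGC of YY1, GCATGCGC of NRF1, the E-box CACGTG bound by MYC, the hypoxia response core ACGTG, which every E-box also holds, and the CCAAT box. CCGGAAG stood in 38.8% of the family's windows, against 16.5% of the windows of all genes tested and 10.3% of all windows. ATGGCGGC stood in 23.5%, against 5.1% and 3.0%. The other motifs were closer to the background, with 7.1% against 4.7% of tested genes for GCATGCGC, 10.6% against 9.1% for CACGTG, 29.4% against 25.2% for ACGTG and 32.9% against 34.7% for CCAAT. A match is a description of the letters and not a bound site, and no binding was measured here.

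The windows of 4 members among the largest decreases are shown, each with a single RefSeq start. In the 250 bases before the start, printed 5′ to 3′ on the strand of the gene with motif matches in capitals, MRPL3 (minus strand, chr3:131502972-131503221) and MRPS23 (minus strand, chr17:57850045-57850294) each hold 1 ETS match, which begins 32 and 14 bases before the start. MRPL50 (minus strand, chr9:101398619-101398868) holds 1 CCAAT box in reverse, 40 bases before the start (its YY1 match is not within these bases), and MRPL12 (plus strand, chr17:81703117-81703366) holds none of the 6 motifs.
MRPL3: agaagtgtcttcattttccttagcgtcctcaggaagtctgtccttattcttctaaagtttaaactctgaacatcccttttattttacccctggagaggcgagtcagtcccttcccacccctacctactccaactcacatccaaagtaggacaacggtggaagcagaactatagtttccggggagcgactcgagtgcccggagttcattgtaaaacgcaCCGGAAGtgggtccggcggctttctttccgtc
MRPS23: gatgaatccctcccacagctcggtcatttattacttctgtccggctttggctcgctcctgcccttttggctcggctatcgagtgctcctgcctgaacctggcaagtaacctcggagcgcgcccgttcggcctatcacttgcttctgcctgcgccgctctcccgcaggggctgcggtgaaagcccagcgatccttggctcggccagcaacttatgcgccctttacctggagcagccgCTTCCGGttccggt
MRPL50: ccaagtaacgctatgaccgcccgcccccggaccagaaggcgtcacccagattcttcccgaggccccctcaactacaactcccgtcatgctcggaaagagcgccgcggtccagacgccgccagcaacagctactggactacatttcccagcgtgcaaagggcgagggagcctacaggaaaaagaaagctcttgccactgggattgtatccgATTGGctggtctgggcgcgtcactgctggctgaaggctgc
MRPL12: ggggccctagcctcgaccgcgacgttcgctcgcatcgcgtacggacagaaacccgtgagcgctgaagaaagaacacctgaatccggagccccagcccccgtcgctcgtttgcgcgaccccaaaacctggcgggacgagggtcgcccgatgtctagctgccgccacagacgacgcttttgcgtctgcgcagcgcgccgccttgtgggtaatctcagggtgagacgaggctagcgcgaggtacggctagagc
MRPS18C holds an ETS match, a CCAAT box, an E-box and an NRF1 match in its window, and MRPS6, the gene that rose, holds none of the 6, with a GC content of 84.8%. MRPS12 has more than 1 RefSeq start, with ETS and CCAAT matches among its windows, and MRPL15 and MRPL35 had no entry. As a description with no test, the median log2-fold change was -0.71 for the 30 members with CCGGAAG and -0.66 for the 39 without, and -0.68 for the 19 with ATGGCGGC against -0.67 for the 50 without. It was -0.76 for the 6 with GCATGCGC against -0.66 for the other 63, -0.73 for the 9 with CACGTG against -0.64 for the other 60, and -0.66 for the 23 with CCAAT against -0.68 for the other 46. The 24 members with ACGTG had the smaller decreases, with a median of -0.56 against -0.78 for the 45 without.

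Several members start next to another gene that is transcribed the opposite way. In GENCODE v29 the start of 17 of the 78 members (21.8%) lies within 1000 bases of the start of a divergent protein-coding gene, against 9.7% of 12274 tested protein-coding genes. The pair MRPL46 and MRPS11, 34 bases apart, counts for both members, and both fell, by 1.05 and 0.69 on the log2 scale. Of the 13 tested neighbours outside the family 5 fell (38.5%, the same share as of all genes tested), 3 rose and 5 did not pass, with a median log2-fold change of -0.24. With MRPL46 and MRPS11 themselves counted as neighbours, 7 of 15 fell and the median was -0.55. TCP1, a subunit of the cytosolic chaperonin that starts 63 bases from MRPL18, fell by 1.03, NDUFS6, a complex I subunit 34 bases from MRPL36, fell by 0.69, and SKA3, a kinetochore gene 43 bases from MRPL57, fell by 1.69. In other pairs the member fell and the neighbour did not: NDUFB5, 36 bases from MRPL47, had a log2-fold change of 0.0071 (SE 0.078), and ZNF189, 259 bases from MRPL50, rose by 0.99. The pairs therefore did not all move in one direction.

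**Figure D4:**
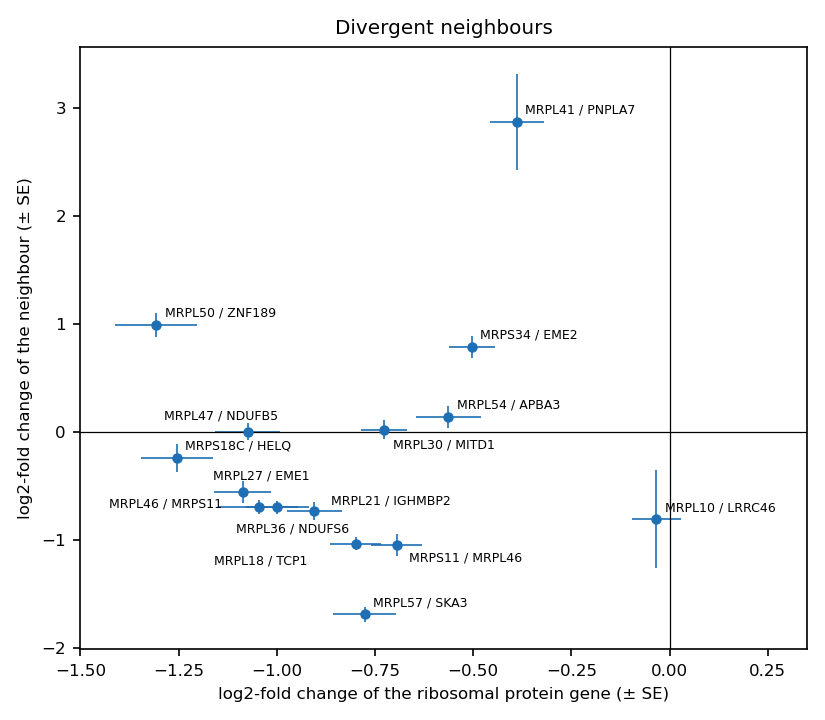
The log2-fold change (hypoxia over normoxia, with SE) of the neighbour against that of the mitochondrial ribosomal protein gene for the 15 divergent pairs with a tested neighbour. Of the 13 neighbours outside the family 5 fell and 3 rose, and the pair of MRPL46 and MRPS11 appears from both sides.

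Ribosomal proteins that carry other names moved the same way. All 5 of those listed fell, with a median log2-fold change of -0.53, or -0.34 with upper-quartile scaling. They were AURKAIP1 (-0.86, SE 0.062), GADD45GIP1 (-0.62), PTCD3 (-0.53), CHCHD1 (-0.47) and the GTP-binding protein DAP3 (-0.42). Of the factors that build the ribosome, 21 of 26 fell and 4 rose, with a median of -0.76. The helicase gene DDX28 (-1.74), the rRNA methyltransferase gene MRM1 (-1.74) and FASTKD2 (-1.68), which binds the large-subunit rRNA, fell most. The endonuclease gene YBEY (0.72), the GTPase gene NOA1 (0.72) and the methyltransferase genes METTL15 (0.38) and TFB1M (0.32) rose.

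Of the translation factors 10 of 15 fell and 2 rose, with a median of -0.54, or -0.35 with upper-quartile scaling. TACO1, a translational activator of COX1, was at 41.1, 45.6 and 37.9 CPM in normoxia and at 18.2, 15.8 and 18.1 CPM in hypoxia, a wide separation with a log2-fold change of -1.26 (SE 0.086). The formyltransferase gene MTFMT (-1.02), the elongation factor gene GFM1 (-0.95) and the elongation factor gene TUFM (-0.33) fell as well. The initiation factor gene MTIF3 rose (0.75, SE 0.088), as did OXA1L (0.30), which inserts the products into the membrane. All 13 tested genes of mitochondrial transcription and RNA processing fell, with a median of -1.02, except that LRPPRC did not pass with upper-quartile scaling. Among them, TFB2M (-1.88), needed to start transcription, PNPT1 (-1.75), of RNA turnover, and TRMT10C (-1.56), of tRNA processing, fell most, and the RNA polymerase gene POLRMT fell by 0.75. Of 17 mitochondrial tRNA synthetase genes 13 fell and none rose, with a median of -0.37, against 9 lower, 4 higher and a median of -0.18 with upper-quartile scaling. MARS2 fell most, from 21.1, 24.7 and 19.5 CPM to 2.78, 3.23 and 2.16 CPM (log2-fold change -2.99, SE 0.14), followed by LARS2 (-1.02) and YARS2 (-0.95).

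Of the 13 protein-coding genes of mitochondrial DNA, whose messages this ribosome translates, 10 fell and 2 rose. Their median log2-fold change was -0.50, or -0.30 with upper-quartile scaling. Together they took 5.60%, 6.72% and 6.27% of all counts in normoxia and 5.59%, 5.28% and 5.48% in hypoxia. These shares were close, and hypoxia replicate 1 lay only just below normoxia replicate 1. ND6, the one encoded on the light strand, fell most, from 241, 289 and 310 CPM to 70.2, 45.6 and 56.7 CPM (log2-fold change -2.29, SE 0.12). ND1 fell by 2.01 and ND2 by 0.67. ND4 rose by 0.40 (SE 0.075), while COX1, at -0.074 (SE 0.059), did not pass the test. Without the filter on low counts, and without normoxia replicate 1, COX1 passed as lower. ND4L rose by 0.17 (SE 0.073), a call lost when replicate 1 of either group or replicate 3 of the hypoxia group was left out, and on log2(FPKM + 0.1).

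Other gene families set the scale. Of the TIMM and TOMM genes of mitochondrial protein import, 21 of 24 fell and none rose, with a median of -0.996, led by TIMM8A (-1.97), TOMM40 (-1.96) and TIMM10 (-1.86). Of 80 nuclear genes for oxidative phosphorylation subunits 47 fell and 7 rose, with a median of -0.21, from ATP5MC1 (-1.08), NDUFS3 (-0.80) and NDUFA9 (-0.78) to ATP5MC2 (0.38), SDHC (0.27) and COX6B2 (4.29). With upper-quartile scaling this family was split, 30 lower and 24 higher, with a median of -0.020. The cytosolic ribosomal protein genes went the opposite way from the mitochondrial ones: 62 of 78 rose and 3 fell, with a median of 0.25. With upper-quartile scaling 75 were higher (median 0.44), and without hypoxia replicate 3 the number was 50 of 79. RPL13A (0.60), RPL3 (0.57) and RPL41 (0.45) rose most, and RPS10 (-1.86), RPS26 (-0.97) and FAU (-0.26) fell. The call of FAU did not hold with upper-quartile scaling. Within the same libraries, the summed level of the cytosolic genes was 1.20 times and that of the mitochondrial genes 0.637 times the normoxia mean.

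**Figure D5:**
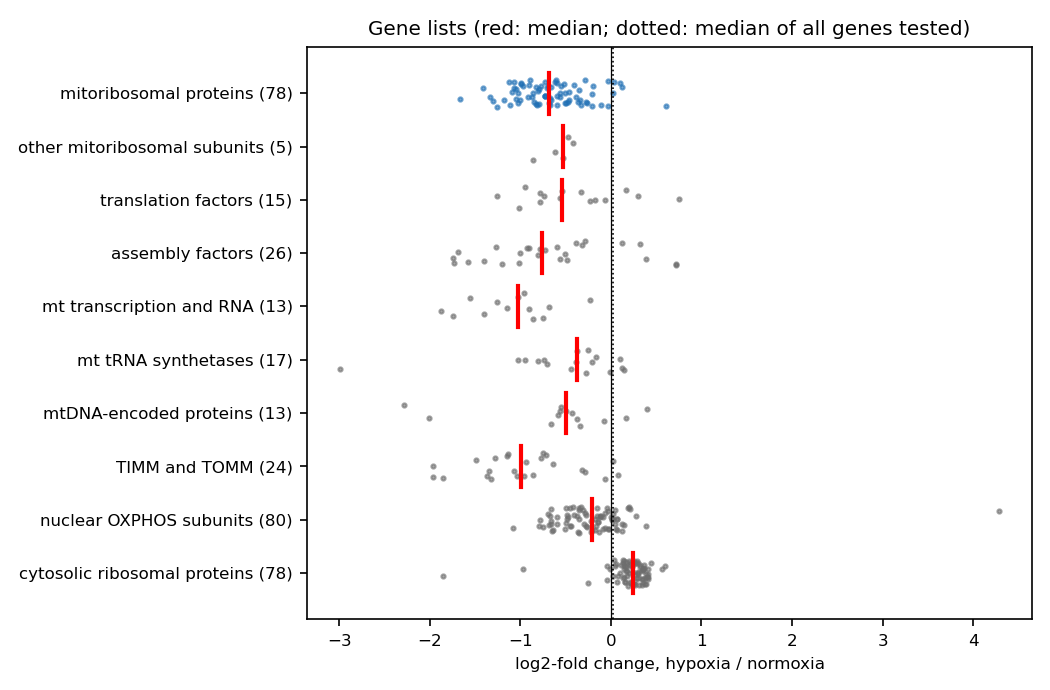
The log2-fold change (hypoxia over normoxia) of each tested gene in 10 lists, with the number tested in brackets, a red line for each median and a dotted line for the median of all genes tested. The mitochondrial ribosomal protein genes centre on -0.68 and the cytosolic ones on 0.25.

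Of 10 regulators known for mitochondrial biogenesis or for the control of its genes, 9 were tested, 7 fell and 1 rose. MYC, which drives growth and ribosome genes, was at 250.3, 256 and 261 CPM in normoxia and at 42.8, 28.2 and 33.6 CPM in hypoxia, a large separation with a log2-fold change of -2.88 (SE 0.10, adjusted p = 1.30e-13 by edgeR). Its antagonist MXI1, a known HIF target, was at 7.39, 7.37 and 9.80 CPM in normoxia and at 115, 134 and 131 CPM in hypoxia, a log2-fold change of 3.96 (SE 0.095). The coactivator genes PPARGC1B (-3.06) and PPRC1 (-2.40) fell, as did GABPB1 (-1.12), NRF1 (-0.55) and ESRRA (-0.46). GABPA did not pass (0.17, SE 0.084), although it passed as higher in 6 of 15 other settings (log2-fold changes from 0.12 to 0.36 over all of them), and PPARGC1A was below the filter on low counts. YY1 fell by 0.15, a call that was lost in 5 of 15 other settings, where the log2-fold change reached 0.039 with upper-quartile scaling. Whether any of these genes had a part in the change of the mitochondrial ribosomal protein genes was not tested.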

How the data were processed

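RNA was sequenced from 6 libraries of SCC25 cells, prepared with a SMARTER mRNA kit. The authors deposited counts, whole reads per gene without normalization, and FPKM for the same genes; for the 78 members the deposited FPKM followed from the counts, 1 length per gene and the library total within 6.87e-08%. Aligner, annotation and counting tool are not given in the sources used here. The submitters' processing notes name the mouse builds GRCm38 and mm10, although symbols and Entrez numbers are human. Samples were grouped by their treatment labels. Counts were fitted with edgeR 4.0.16 in R 4.3.3 (TMM, filterByExpr, quasi-likelihood F test, condition as the only term, Benjamini-Hochberg adjusted p under 0.05), and 2 was the prior count for log2 CPM. On simulated hypoxia against normoxia counts with 200 of 14253 genes changed by a log2-fold change of 1, edgeR recovered 200, with 3.85% of its calls false. Members sharing exons, divergent neighbours and positions came from GENCODE v29, motifs and sequences from RefSeq.

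Values in every library are given for the 8 largest increases and decreases among members that passed without overlap, the 5 with the highest FPKM, the stalk genes and MRPS36, and from each other list the 3 largest changes in each direction with MYC, POLRMT and TUFM are named. Other names were added after their values were seen. The members and lists were chosen with earlier results of these data known. No library was a copy of another (chi-square between replicates, divided by the number of genes, 5.11 to 11.5). Alternatives were DESeq2 1.42.0 size factors, upper-quartile scaling, library totals, the DESeq2 Wald test, no filter, a minimum of 10 counts per library, the replicate block, limma 3.58.1 on log2(FPKM + 1) or log2(FPKM + 0.1) above a mean FPKM of 1, and each library left out in turn.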

Additional observations from a re-analysis of the deposited data

How the results depend on the processing

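Over the main fit and the alternatives listed above, the number of members lower in hypoxia stayed between 61 and 69. All genes called numbered 8843 to 11920. Upper-quartile scaling moved the median log2-fold change of all genes by 0.193 and the share of calls that were higher from 50.5% to 61%. Relative to the median of all genes, 73 of the 78 members were lower under both scalings. This count could hardly change, since a rescaling of libraries moves all genes by nearly the same amount. It was 70 of 77 with a minimum of 10 counts per library, 69 of 77 on either form of the FPKM and 77 of 78 without the filter. The number of members called higher was 7 with upper-quartile scaling, 2 with library totals, 3 with a minimum of 10 counts per library, and 1 to 2 with a library left out. The members' median was -0.49 with upper-quartile scaling, -0.60 with a minimum of 10 counts, -0.61 on log2(FPKM + 1), and -0.75 to -0.66 with a library left out. In the same order, the large-subunit median was -0.53, -0.65, -0.64, and -0.78 to -0.71, and the small-subunit median -0.42, -0.53, -0.46 (-0.55 on log2(FPKM + 0.1)), and -0.67 to -0.56.

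Members that share no exon with another gene, a setting chosen after seeing the data, gave 35 lower, because only 37 members are left. Leaving out 1 library gave 45 to 46 large-subunit and 22 small-subunit members called lower.

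The sign changed for genes near 0. With upper-quartile scaling the log2-fold change was 0.000098 for MRPL23, 0.086 for MRPL43, 0.16 for MRPL10 and 0.17 for MRPS18A. MRPL10 and MRPS18A were at 0.015 and 0.019 with library totals, 0.044 and 0.049 with the minimum of 10 counts, 0.015 and 0.018 on log2(FPKM + 1), and 0.015 and 0.018 on log2(FPKM + 0.1). Without the filter MRPS27 was at -0.014 and MRPL53 at -0.0065. With a library left out, MRPL10 ranged from -0.088 to 0.019, MRPS27 from -0.019 to 0.059 and MRPL53 from -0.066 to 0.097. The shift of the scaling apart, the cause of these changes was not tested. Upper-quartile scaling also ended the calls of MRPS36, MRPL55, MRPS33, MRPS21, MRPS15, MRPL28, MRPL33 and MRPL23. The calls of MRPL28, MRPL33 and MRPL23 were also lost with the minimum of 10 counts, that of MRPL33 with library totals and that of MRPL28 on the FPKM. With upper-quartile scaling 19 TIMM and TOMM genes were lower and 3 higher, and the medians of the translation factors, the ribosomal proteins with other names, the mitochondrial DNA genes and the regulators were -0.35, -0.34, -0.30 and -0.36.

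Same-numbered libraries did not deviate together (correlations of -0.069 to 0.018), and with the replicate block 69 members were lower and 10875 genes were called, with a median of -0.68 for the members. Of 699 values of single members under the other settings, 665 kept their direction and side of the threshold, and of 468 with a library left out, 463 did. MRPS24 was not tested with the minimum count per library or on the FPKM. Whether a change of the size seen in MRPS24 can be detected at its depth was not tested.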
